A study of Mus musculus with 32 samples.

Results

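The axon guidance ligands and receptors expressed in mouse striatum are described here. They were taken by gene symbol as the semaphorins, plexins, neuropilins, ephrins, Eph receptors, Slits, Robos, netrins, netrin-G proteins, Unc5 receptors and *Dcc* whose mean over the 16 mice was at least 0.5 CPM (reads counted on the gene, scaled to a common library total). Of 71 matching symbols, 69 met that minimum, among 15156 genes in the count tables that did. The member just inside the minimum was *Epha1*, with a mean of 0.678 CPM. Just outside it were *Efna4*, with 0.250 CPM, and *Ntn5*, with 0.194 CPM. The members comprise 31 genes of the semaphorin family with its plexin and neuropilin receptors, 21 of the ephrin and Eph family, 7 Slits and Robos, and 10 of the netrin family with its receptors. By role, 35 are ligands and 34 are receptors.

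Axon guidance cues are secreted or membrane-bound proteins that growing axons read through receptors on the growth cone, where they attract, repel or halt growth. Semaphorins act through plexins, often with neuropilins as co-receptors, ephrins through Eph receptor tyrosine kinases, Slits through Robos, and netrins through Dcc and the Unc5 receptors. Many of these genes stay active in adult brain, where they have been tied to synapse structure and, in the striatum, to the wiring of its cortical and dopaminergic inputs.

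The study asked how a stretch of DBA/2J chromosome 11 changes the striatal transcriptome. The control group was 8 naïve C57BL/6J (B6) mice. The other group was 8 naïve B6.D2 congenic mice of Line 4a, which carry the DBA/2J stretch on 1 copy of chromosome 11 in a C57BL/6J background. The labels give an age of about 50 days and bilateral striatal punches of 3 mm, pooled for each mouse, while the study's methods give a narrower punch and a range of ages. The labels name neither sex nor home cage, and neither was a term in the comparison, while the study's own model included home cage. Reads counted on genes ran from 19032826 to 33748353 in B6 mice and from 24912413 to 32085311 in B6.D2 mice. Mice 1 to 4 of each genotype were sequenced on lanes 5 and 6 and mice 5 to 8 on lanes 7 and 8. Of the 69 guidance genes, 3 lie on chromosome 11 (*Efnb3*, *Ntn1* and *Slit3*), and 0 lie inside the Line 4a stretch.

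The tissue was checked against marker genes. From here on, values per mouse are CPM scaled by edgeR's TMM factors. Of 17 striatal projection neuron markers listed, 16 were in the tables under the listed symbol, and their summed level ran from 9883 to 14493 CPM in B6 mice and from 10804 to 12236 CPM in B6.D2 mice. The most abundant of them was *Gng7*, a G protein subunit, and per exon length it was *Penk*, the enkephalin precursor. None of the 16 had an unadjusted p under 0.05 between genotypes in edgeR. With B6.D2 mouse 1 and B6 mouse 8 left out, a choice made after seeing the data, 3 of the 16 were higher and 0 lower, beside 5.44% and 7.32% of all genes. All 16 then lay above 0, with a median log2 fold change of 0.10, against 0.03 with all mice. In lanes 5 and 6 the median was 0.11, with 14 of the 16 above 0. In lanes 7 and 8 it was -0.06, with 14 of the 16 below 0. Markers of cortical glutamatergic neurons were also present, as described after the results of the guidance genes.

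The library of B6.D2 mouse 1 stood apart from all others. Relative to the median of the 16 mice on the log2 scale, its 1784 genes with under 2000 bp of exon were shifted by a median of 0.50, and its 1441 genes with over 8000 bp by -0.45. In the 14 mice other than this one and B6 mouse 8, the long genes deviated by between -0.04 and 0.04. B6 mouse 8 had a smaller shift of 0.12 in the short genes and -0.05 in the long ones. The guidance genes are long, with a median of 6067 bp of exon against 3685 bp for the genes tested, and 26.1% of them exceed 8000 bp against 10.6%. Their median deviation was -0.41 in B6.D2 mouse 1, which was the lowest of its genotype for 53 of the 69 genes and for 36.5% of all genes tested. Counts, medians and fold changes between genotypes are therefore given with and without this mouse where they rest on it. The fit with a marker score as a covariate, given below, was made only with this mouse included.

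**Figure D1:**
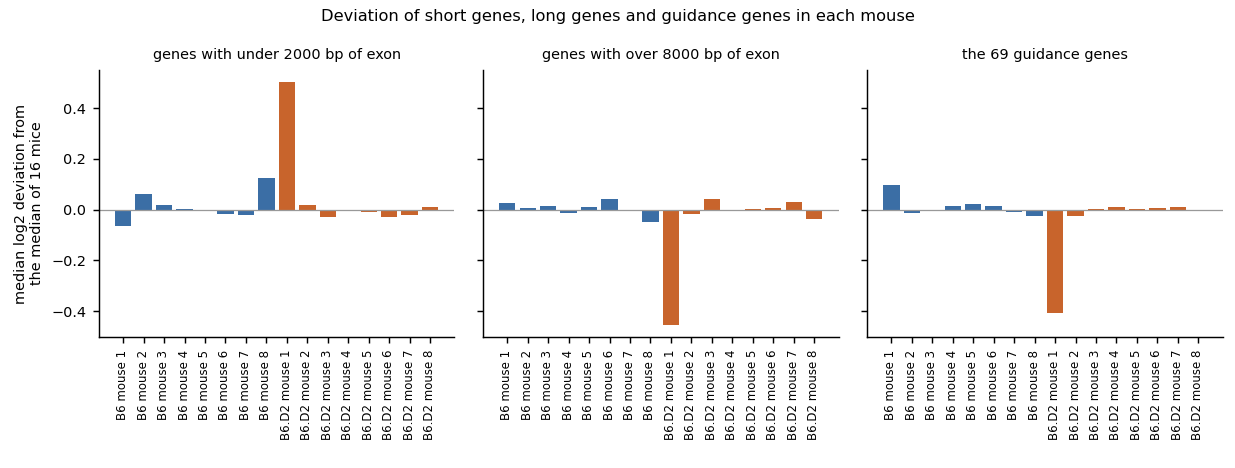
Median log2 deviation of each mouse from the median of 16 mice (y axis) for genes with under 2000 bp of exon, genes with over 8000 bp of exon and the 69 guidance genes; each bar is 1 mouse, B6 in blue and B6.D2 in orange. B6.D2 mouse 1 stands at 0.50 for short genes, -0.45 for long genes and -0.41 for guidance genes.

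Levels were compared between genes as TMM-scaled CPM per kilobase of exon (RPKM). The median level of the 69 genes over 16 mice was 4.98 RPKM, against 6.33 RPKM for the genes tested. It exceeded 10 RPKM for 15 members and lay under 1 RPKM for 5. The highest level was that of *Efnb3*, the ephrin-B3 ligand, at 67.6 ± 7.01 RPKM in B6 mice (SD, n = 8) and 73.9 ± 5.57 RPKM in B6.D2 mice (SD, n = 8). *Sema7a*, a membrane-anchored semaphorin, followed at 51.2 ± 4.20 RPKM in B6 mice (SD, n = 8), and *Epha4*, an Eph receptor that binds both ephrin classes, at 35.3 ± 4.62 RPKM (SD, n = 8). *Epha1* was lowest, with a mean level of 0.207 RPKM. In the netrin family, the repulsive netrin receptors *Unc5a* and *Unc5b* had the highest levels, 18.7 ± 0.975 and 13.4 ± 1.83 RPKM in B6 mice (SD, n = 8). Of the Slits and Robos, *Robo2*, a Slit receptor, had the highest level, 9.38 ± 0.802 RPKM in B6 mice (SD, n = 8), and *Slit2* the lowest, 1.13 ± 0.139 RPKM (SD, n = 8).

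**Figure D2:**
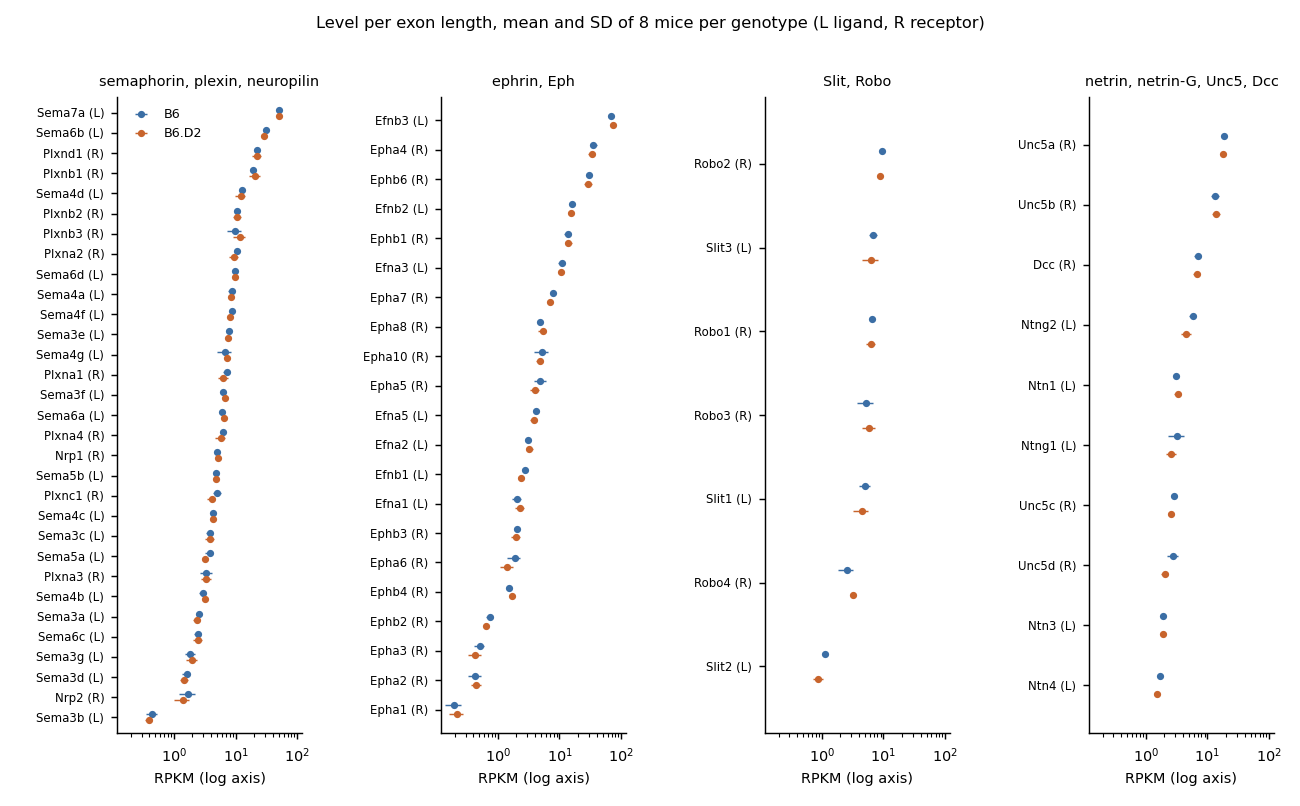
Level per exon length (RPKM, log x axis) of the 69 guidance genes in 4 families, with points for the mean and bars for the SD of 8 mice, B6 in blue and B6.D2 in orange; L marks ligands and R receptors. Levels span 0.207 RPKM (*Epha1*) to 70.7 RPKM (*Efnb3*), and the means of both genotypes lie close together for most genes.

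Levels also varied among mice of the same genotype. The median coefficient of variation of the CPM of a guidance gene over B6 mice was 12%, against 9.37% for all genes tested. *Robo3*, a divergent Robo, varied most, at 30.2%, and *Plxnd1*, a receptor for class 3 semaphorins, least, at 3.51%. The *Robo3* value rests in part on B6 mouse 8, at 14.6 CPM against 29.9 to 53.0 CPM in the other B6 mice. The ranking without that mouse was not tested. In B6.D2 mice the median was 13%, against 12.3% for all genes tested. Without mouse 1 these were 8.44% and 6.52%.

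The genotype comparison placed none of the 69 guidance genes past a Benjamini-Hochberg false discovery rate (FDR) of 0.05. In the edgeR quasi-likelihood test, 1 of 15589 genes passed, or 0.00641%, and the smallest adjusted p of a member was 0.331. At an unadjusted p under 0.05, 11 members were lower and 1 was higher in B6.D2 mice. The lower ones make up 15.9% of the members, and over all genes tested 5.14% were lower. The higher one makes up 1.45%, against 4.86%. DESeq2 also placed 0 members past that FDR, beside 0.16% of all genes. It had 13 members lower and 1 higher at an unadjusted p under 0.05, beside 5.59% and 4.76% of all genes. The median log2 fold change of the members was -0.06, against 0.01 for all genes, with 44 members below 0 and 25 above. In bulk tissue, fewer cells that express a gene and less of its RNA per cell cannot be told apart.

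The counts changed with B6.D2 mouse 1. Without it, 10 members were lower and 7 higher at an unadjusted p under 0.05, beside 7.54% and 5.82% of 15624 genes, and the median of the members was -0.01. All 10 lower members were among the 11 found with all mice, and the one that dropped out was *Epha5*, at p = 0.0609. With B6 mouse 8 left out as well, a choice made after seeing the data, 12 were lower and 8 higher, beside 7.32% and 5.44% of 15601 genes. Of the 11 lower with all mice, *Epha6*, at p = 0.0698, and *Ntn4*, at p = 0.0504, were not among these 12. *Ephb2*, *Ntng1* and *Plxna1*, named after their values were seen, were among them. The 7 members higher without mouse 1 were *Epha8*, *Plxnb1*, *Sema3f*, *Plxnb3*, *Robo4*, *Ephb4* and *Plxnd1*, named after their values were seen, with log2 fold changes from 0.08 to 0.34. Of these, *Robo4* alone had a p under 0.05 with all mice.

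Within each lane pair the picture was uneven. Among the mice of lanes 5 and 6, 8 members were lower and 0 higher at an unadjusted p under 0.05 in edgeR, beside 1.56% and 1.64% of 15642 genes, with a median of -0.10. That subset holds B6.D2 mouse 1. Among the mice of lanes 7 and 8, 7 were lower and 6 higher, beside 4.66% and 4.35% of 15619 genes, with a median of -0.00035. The edgeR test of the difference between lane pairs placed 0 of 15589 genes past an FDR of 0.05, and its likelihood ratio test also 0. At an unadjusted p under 0.05 it took 0 of the 69 members, beside 1.88% of all genes. The difference, lanes 7 and 8 minus lanes 5 and 6, was above 0 for 51 members and below 0 for 18. Its median was 0.11, against 0.0014 for all genes, with B6.D2 mouse 1 included.

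**Figure D3:**
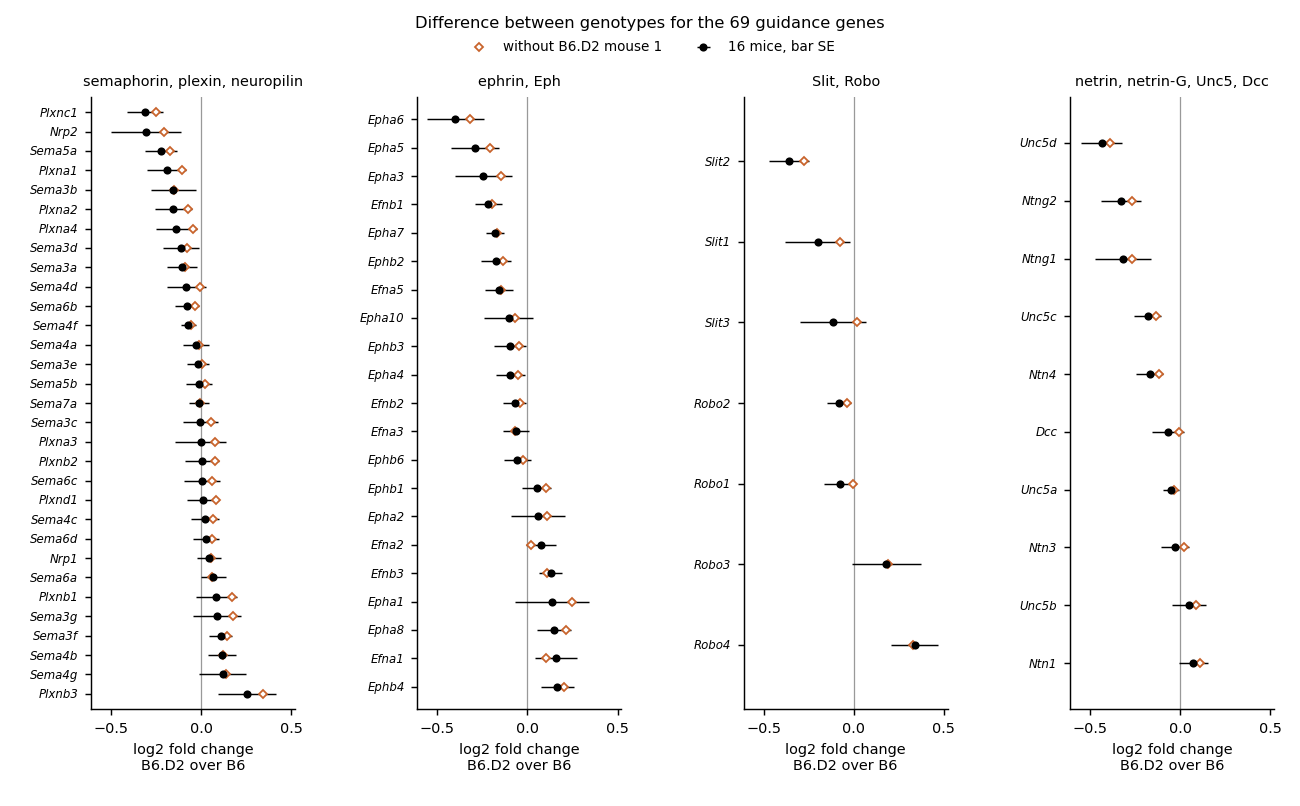
Log2 fold change of B6.D2 over B6 (x axis) for the 69 guidance genes in 4 families, from all 16 mice (black points, bars SE) and without B6.D2 mouse 1 (open diamonds). The median is -0.06 with all mice and -0.01 without that mouse, and most diamonds lie to the right of their points.

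Counts by family are small, and no test compared the families. The netrin family had 4 of 10 lower and 0 higher, the ephrin family 4 of 21 lower and 0 higher, the semaphorin family 2 of 31 lower and 0 higher, and the Slits and Robos 1 of 7 lower and 1 higher, beside 5.14% and 4.86% of all genes. Without B6.D2 mouse 1 the netrin family had 4 lower and 0 higher, the ephrin family 3 lower and 2 higher, the semaphorin family 2 lower and 4 higher, and the Slits and Robos 1 lower and 1 higher, beside 7.54% and 5.82%. The median log2 fold change was -0.12 in the netrin family, -0.07 in the ephrin family and -0.08 in the Slits and Robos. Without that mouse these were -0.07, -0.05 and -0.0058. The semaphorin median was -0.01 with all mice, 0.00045 with upper-quartile scaling and 0.02 without that mouse. By role, 5 of 35 ligands were lower and 0 higher, and 6 of 34 receptors were lower and 1 higher. Without that mouse 5 ligands were lower and 1 higher, and 5 receptors were lower and 6 higher.

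Promoters are shown for the member with the lowest p in 3 families, each of which was lower at an unadjusted p under 0.05. They come from RefSeq on GRCm38.p6 (mm10), as windows of 300 bases at the start that its promoter table lists, and 59 of the 69 members have an entry, with 75 promoters. *Unc5d*, the lowest of the netrin family, has none. Capitals mark the GC box, GGGCGG on either strand, which reads CCGCCC on the other. *Slit2* lies at chr5:47982905-47983204 (plus strand), *Epha7* at chr4:28812881-28813180 (plus strand) and *Plxnc1* at chr10:94944796-94945095 (minus strand). The *Slit2* window lies inside the annotated span of the gene, chr5:47981291-48307735, which begins upstream of it.
Slit2: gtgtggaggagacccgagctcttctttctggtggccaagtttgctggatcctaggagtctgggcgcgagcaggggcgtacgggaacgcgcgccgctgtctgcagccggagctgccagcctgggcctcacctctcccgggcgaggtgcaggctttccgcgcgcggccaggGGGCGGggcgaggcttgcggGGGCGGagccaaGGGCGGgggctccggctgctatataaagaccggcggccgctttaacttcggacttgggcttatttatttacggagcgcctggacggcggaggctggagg
Epha7: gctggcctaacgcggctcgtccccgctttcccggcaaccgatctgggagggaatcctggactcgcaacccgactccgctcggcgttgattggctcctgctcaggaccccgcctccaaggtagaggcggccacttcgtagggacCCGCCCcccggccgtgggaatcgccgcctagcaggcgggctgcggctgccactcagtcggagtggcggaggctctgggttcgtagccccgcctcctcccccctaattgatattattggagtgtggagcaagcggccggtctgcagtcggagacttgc
Plxnc1: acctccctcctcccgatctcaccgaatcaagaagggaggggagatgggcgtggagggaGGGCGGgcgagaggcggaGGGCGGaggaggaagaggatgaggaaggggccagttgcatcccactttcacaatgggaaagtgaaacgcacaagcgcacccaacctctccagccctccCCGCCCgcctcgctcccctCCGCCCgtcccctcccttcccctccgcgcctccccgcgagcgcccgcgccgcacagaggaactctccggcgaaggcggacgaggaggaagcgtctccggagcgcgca
The *Slit2* window holds 3 GC boxes, the *Epha7* window 1 and the *Plxnc1* window 4. The GC box occurs in 54 of 75 promoters of the members (72.0%) and in 35.7% of 32851 promoters of the table. The letters TATAAA occur on either strand in 2 of the 75 and in 13.6% of all, and CCAAT in 21 of the 75 and in 37.4% of all. The median GC content is 64.3% for the members and 52.7% for all promoters. A match describes the letters of a window and not a working site.

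*Slit2* encodes a secreted repellent that acts through Robo receptors. Its level ran from 14.8 to 20.5 CPM in B6 mice, with a median of 16.6 CPM, and from 7.68 to 14.7 CPM in B6.D2 mice, with a median of 14.5 CPM. With TMM scaling every B6.D2 mouse lay below every B6 mouse, which held for 1 of 69 members and for 0.0257% of all genes tested. The gap was narrow, between 14.73 CPM in the highest B6.D2 mouse and 14.77 CPM in B6 mouse 8. With RLE scaling the groups also did not overlap, but with upper-quartile scaling 3 B6.D2 mice lay above B6 mouse 8, and with library totals alone 5 did. The lowest value was that of B6.D2 mouse 1. The log2 fold change was -0.36 ± 0.11 (SE), with an edgeR adjusted p of 0.369. The exact two-sided permutation test gave p = 0.000155, the smallest that 8 against 8 mice can give, and 0.00124 without mouse 1. With upper-quartile scaling the exact permutation p was 0.000622, and with library totals alone 0.00202. The log2 fold change was -0.28 without mouse 1, -0.51 in lanes 5 and 6, and -0.21 in lanes 7 and 8.

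Among the other Slits and the Robos, *Robo4* alone had an unadjusted p under 0.05. *Slit3*, a further Slit ligand, ran from 32.2 to 48.4 CPM in B6 mice, with a median of 42.2 CPM, and from 12.1 to 47.4 CPM in B6.D2 mice, with a median of 43.0 CPM. The groups overlapped, and the low end was B6.D2 mouse 1 alone. Its log2 fold change was -0.12 with all mice and 0.02 without that mouse. *Robo4*, the Robo of blood vessel endothelium, ran from 7.10 to 14 CPM in B6 mice, with a median of 10.4 CPM, and from 12.1 to 14.3 CPM in B6.D2 mice, with a median of 13.1 CPM. B6 mice were widely spread, and 4 of 8 lay below every B6.D2 mouse. Its log2 fold change was 0.34 ± 0.13 (SE), with an edgeR adjusted p of 0.431 and an exact permutation p of 0.0277 (0.0446 without mouse 1), and it was 0.33 without mouse 1 and 0.31 and 0.38 in the lane pairs. With a score of cortical neuron markers as a covariate it was 0.16, at an unadjusted p of 0.318. The summed level of 8 endothelial markers had medians of 318.9 CPM in B6 and 343.5 CPM in B6.D2 mice, with an exact permutation p of 0.132 (0.148 without mouse 1). Of those markers 1 was higher at an unadjusted p under 0.05 (*Ly6c1*), the most abundant was *Slco1c1* and none was at 0. *Ly6c1* had medians of 23.4 CPM in B6 and 26.3 CPM in B6.D2 mice, with a maximum of 87.2 CPM in B6.D2 mice. Without B6.D2 mouse 1, 2 of the 8 were higher and their median log2 fold change was 0.13, against 0.09 with all mice. Their part in the *Robo4* values was not tested. *Robo2* had a log2 fold change of -0.08 ± 0.06 (SE), with an edgeR adjusted p of 0.670, and -0.04 without mouse 1.

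In the netrin family the receptor *Unc5d*, which mediates repulsion, had the lowest p of all members. The gene lies at chr8:28646717-29219671 (mm10). Its level ran from 18.5 to 31.9 CPM in B6 mice, with a median of 23.5 CPM, and from 14.1 to 22.0 CPM in B6.D2 mice, with a median of 18.9 CPM. All 8 B6.D2 mice lay below the B6 median, 3 lay below every B6 mouse, and the groups overlapped. B6.D2 differed from B6 by a log2 fold change of -0.43 ± 0.11 (SE), with an edgeR adjusted p of 0.331 and an exact permutation p of 0.00435 (0.00979 without mouse 1). It was -0.39 without B6.D2 mouse 1, and -0.45 and -0.42 in the lane pairs. *Ntng2*, a membrane-anchored netrin-G ligand of synaptic adhesion, had medians of 22.4 CPM in B6 (18.1 to 27.4) and 18.0 CPM in B6.D2 mice (12.9 to 23.3). The groups overlapped, with 4 B6.D2 mice below every B6 mouse. Its log2 fold change was -0.33 ± 0.11 (SE), with an edgeR adjusted p of 0.397, -0.27 without mouse 1, and -0.38 and -0.28 in the lane pairs. Part of the *Ntng2* span is shared with another expressed gene, *6530402F18Rik*.

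*Unc5c*, a further repulsive netrin receptor, had medians of 34.7 CPM in B6 (31.4 to 39.8) and 31.3 CPM in B6.D2 mice (24.1 to 35.4). *Ntn4*, a secreted netrin, had medians of 6.53 CPM in B6 (6.01 to 6.88) and 5.86 CPM in B6.D2 mice (4.33 to 6.55). For both genes B6.D2 mouse 1 was the lowest, and the groups overlapped. The log2 fold change of *Unc5c* was -0.18 ± 0.08 (SE), with an edgeR adjusted p of 0.463, -0.14 without mouse 1, and -0.18 in each lane pair. Its exact permutation p was 0.0368 with all mice and 0.0757 without mouse 1. For *Ntn4* the log2 fold change was -0.17 ± 0.07 (SE), with an edgeR adjusted p of 0.472, -0.12 without mouse 1, and -0.22 and -0.12 in the lane pairs. Without both mouse 1 and B6 mouse 8 it was -0.12, at an unadjusted edgeR p of 0.0504. The abundant receptors *Unc5a* and *Unc5b* had log2 fold changes of -0.05 ± 0.05 and 0.05 ± 0.09 (SE), with edgeR adjusted p-values of 0.706 and 0.872, and -0.03 and 0.09 without mouse 1. *Unc5b* changed sign between settings. It was at -0.04 in lanes 5 and 6, at 0.13 in lanes 7 and 8 with an unadjusted p of 0.0291, and at -0.18 with the score of cortical neuron markers as a covariate, at an unadjusted p of 0.0737. *Unc5a* shares part of its span with the expressed gene *Hk3*.

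Among the Eph receptors, *Epha7*, a receptor for ephrin-A ligands, ran from 70.2 to 87.1 CPM in B6 mice, with a median of 75.9 CPM, and from 63.5 to 72.1 CPM in B6.D2 mice, with a median of 68.7 CPM. All 8 B6.D2 mice lay below the B6 median, and 6 B6 mice lay above every B6.D2 mouse. On the log2 scale the fold change was -0.18 ± 0.05 (SE), with an edgeR adjusted p of 0.331 and an exact permutation p of 0.00171 (0.00482 without mouse 1). It was -0.17 without mouse 1, and -0.17 and -0.20 in the lane pairs. With the score of cortical neuron markers as a covariate it was -0.10, at an unadjusted p of 0.111. *Epha6*, an EphA receptor, had medians of 9.05 CPM in B6 (7.34 to 13.9) and 7.52 CPM in B6.D2 mice (4.33 to 10.1). The groups overlapped widely, and its log2 fold change was -0.40 ± 0.16 (SE), with an edgeR adjusted p of 0.439. It was -0.32 without mouse 1, and -0.42 and -0.39 in the lane pairs. Without both mouse 1 and B6 mouse 8 it was -0.23, at an unadjusted edgeR p of 0.0698. The exact permutation p was 0.0348 with all mice and 0.0730 without mouse 1. *Epha5*, also an EphA receptor, had medians of 46.6 CPM in B6 (37.2 to 66.1) and 42.3 CPM in B6.D2 mice (23.4 to 45.8). Only mouse 1 lay below every B6 mouse, and the exact permutation p was 0.0842 (0.170 without it). Its log2 fold change was -0.29 ± 0.13 (SE), with an edgeR adjusted p of 0.487, and -0.21 without mouse 1. It was -0.47 in lanes 5 and 6 and -0.11 in lanes 7 and 8.

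Of 7 ephrin ligands, 1 was lower and 0 higher at an unadjusted p under 0.05, beside 5.14% and 4.86% of all genes. It was *Efnb1*, the ephrin-B1 ligand, with medians of 9.56 CPM in B6 (8.19 to 10.7) and 7.97 CPM in B6.D2 mice (7.33 to 9.78). In 5 B6.D2 mice it lay below every B6 mouse. On the log2 scale the fold change was -0.22 ± 0.07 (SE), with an edgeR adjusted p of 0.397, -0.20 without mouse 1, and -0.17 and -0.27 in the lane pairs. *Efnb3*, the most abundant member per length, had medians of 221.0 CPM in B6 (172.7 to 242.6) and 229.8 CPM in B6.D2 mice (217.3 to 269.4). Here 3 B6 mice lay below every B6.D2 mouse, and the log2 fold change was 0.13 ± 0.06 (SE), with an edgeR adjusted p of 0.519. It was 0.11 without mouse 1 and -0.00063 with the score of cortical neuron markers as a covariate. The abundant receptor *Epha4* had a log2 fold change of -0.09 ± 0.08 (SE), with an edgeR adjusted p of 0.695, and -0.05 without mouse 1.

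In the semaphorin family, *Plxnc1*, the plexin that binds Sema7a, ran from 29.2 to 44.5 CPM in B6 mice, with a median of 34.2 CPM, and from 19.9 to 35.4 CPM in B6.D2 mice, with a median of 29.2 CPM. The groups overlapped, with 4 B6.D2 mice below every B6 mouse. On the log2 scale the fold change was -0.31 ± 0.10 (SE), with an edgeR adjusted p of 0.385 and an exact permutation p of 0.00793 (0.0172 without mouse 1). It was -0.25 without mouse 1, -0.42 in lanes 5 and 6, and -0.20 in lanes 7 and 8. Its ligand *Sema7a* ran from 144.8 to 186.1 CPM in B6 mice and from 154.1 to 188.1 CPM in B6.D2 mice, with a log2 fold change of -0.01 ± 0.06 (SE), and -0.0069 without mouse 1. *Sema5a*, a transmembrane semaphorin, had medians of 43.7 CPM in B6 (37.6 to 58.6) and 39.7 CPM in B6.D2 mice (29.4 to 44.0). Mouse 1 was the lowest, and 4 B6 mice lay above every B6.D2 mouse. Its log2 fold change was -0.22 ± 0.09 (SE), with an edgeR adjusted p of 0.445, and -0.17 without mouse 1. It was -0.34 in lanes 5 and 6 and -0.11 in lanes 7 and 8, where the unadjusted p was 0.256. The exact permutation p was 0.0300 with all mice and 0.0648 without mouse 1. *Sema6b*, an abundant transmembrane semaphorin, had a log2 fold change of -0.08 ± 0.07 (SE), with an edgeR adjusted p of 0.696, and -0.03 without mouse 1.

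**Figure D4:**
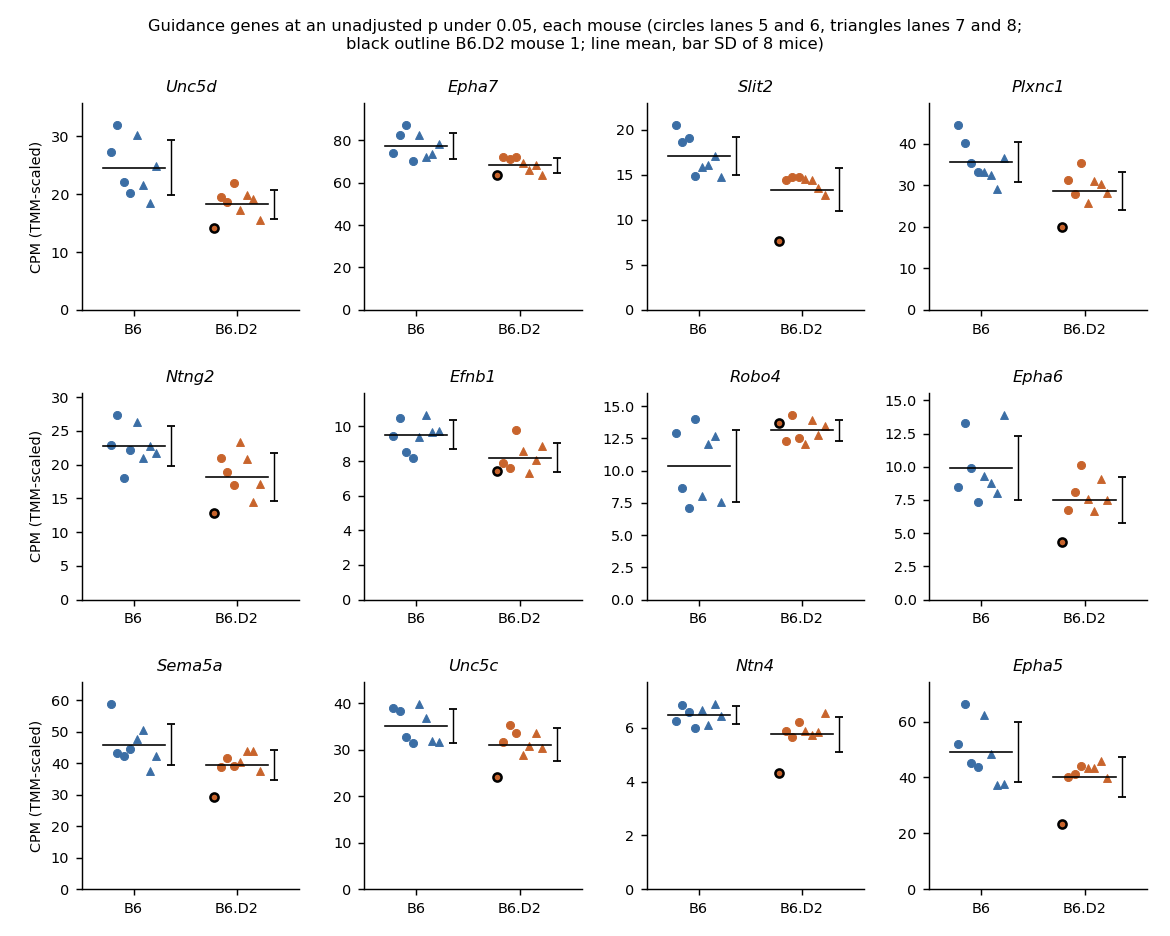
CPM of each mouse (y axis, TMM-scaled) for the 12 guidance genes with an unadjusted p under 0.05, B6 in blue and B6.D2 in orange, with circles for lanes 5 and 6, triangles for lanes 7 and 8, a line for the mean and a bar for the SD of 8 mice. B6.D2 mouse 1, outlined in black, is the lowest mouse in most panels, and *Slit2* alone shows no overlap between genotypes at this scaling.

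Markers of cortical glutamatergic neurons moved with the lower guidance genes. The summed level of 12 such markers ran from 577.7 to 935.8 CPM in B6 mice, with a median of 814.2 CPM, and from 407.1 to 821.8 CPM in B6.D2 mice, with a median of 580.5 CPM. The exact permutation p was 0.00559 (0.00793 without B6.D2 mouse 1). At an unadjusted p under 0.05 in edgeR, 9 of the 12 were lower and 0 higher, beside 5.14% and 4.86% of all genes. The most abundant was *Slc17a7*, a vesicular glutamate transporter, and none of the 12 was at 0. Their median log2 fold change was -0.56, and -0.57 without B6.D2 mouse 1. With a score of these markers as a covariate in the edgeR fit, 3 members were lower and 0 higher at an unadjusted p under 0.05, beside 1.08% and 2.07% of all genes. These were *Efnb1*, at a log2 fold change of -0.24, and *Sema3b* and *Sema3e*, class 3 semaphorins, at -0.36 and -0.15. Without the covariate *Sema3b* was at -0.15 and *Sema3e* at -0.02, with unadjusted edgeR p-values of 0.233 and 0.777. Of the 11 members lower without the covariate, *Efnb1* alone still passed, all 11 kept log2 fold changes below 0, and 6 were nearer to 0. The 6 nearer to 0 were *Unc5d* at -0.28, *Slit2* at -0.30, *Plxnc1* at -0.23, *Ntng2* at -0.22, *Epha5* at -0.22 and *Epha7* at -0.10. *Epha6* was at -0.42, *Sema5a* at -0.23, *Ntn4* at -0.20 and *Unc5c* at -0.18. The median of the 69 members was -0.07 with the covariate, with 53 below 0. By family it was -0.18 in the Slits and Robos, -0.17 in the netrin, -0.05 in the semaphorin and -0.04 in the ephrin family. All values with the covariate include B6.D2 mouse 1. The covariate was not fitted without that mouse, so how far these values rest on it was not tested. Scores were lower in most B6.D2 mice than in most B6 mice, and the part of score and genotype in the lower levels cannot be told apart.

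**Figure D5:**
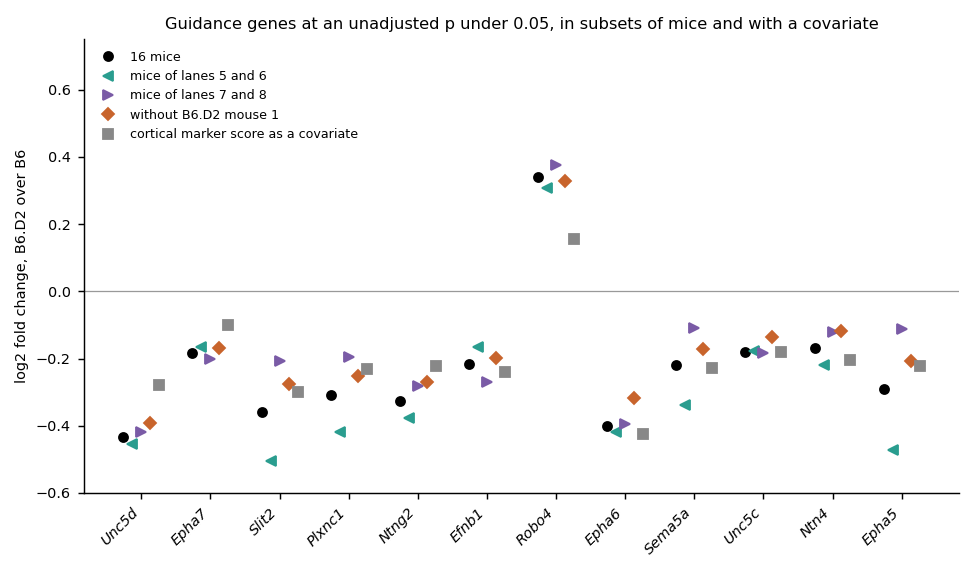
Log2 fold change of B6.D2 over B6 (y axis) for the 12 guidance genes with an unadjusted p under 0.05, from all 16 mice, from the mice of each lane pair, without B6.D2 mouse 1 and with the cortical marker score as a covariate. All values of the 11 lower genes lie below 0 and those of *Robo4* above it, in subsets of the same mice on which the genes were chosen.

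Markers of other cells were read in the same way. With all mice, summed levels had exact permutation p-values of 0.342 for 11 oligodendrocyte markers (most abundant *Mbp*), 0.177 for 8 astrocyte markers (*Aldoc*), 0.0446 for 8 microglia markers (*Csf1r*) and 0.306 for 8 choroid plexus markers (*Ttr*). For 12 hypothalamic and ventral forebrain markers the p was 0.882, and 6 of them, *Otp*, *Sim1*, *Avp*, *Oxt*, *Pmch* and *Hcrt*, had means under 0.5 CPM. Of the 7 tested in edgeR, 1 was higher at an unadjusted p under 0.05 (*Lhx8*, log2 fold change 0.36). Of the 8 astrocyte markers 1 was higher (*Gjb6*, 0.20), beside 4.86% of all genes. Without B6.D2 mouse 1 these counts were 1 and 0, beside 5.82%. The choroid plexus markers differed between lane pairs. Their median log2 fold change was 0.87 in lanes 5 and 6. There 4 of 8 were higher at an unadjusted p under 0.05, beside 1.64% of all genes. In lanes 7 and 8 the median was -0.42, with all 8 below 0. At an unadjusted p under 0.05, 0 of 8 were lower or higher there, beside 4.66% and 4.35% of all genes. The difference between lane pairs had an unadjusted p under 0.05 for 7 of the 8, beside 1.88% of all genes, and 0 passed an FDR of 0.05 in edgeR. The microglia medians were 564.1 CPM in B6 and 592.9 CPM in B6.D2 mice, with the highest value in B6.D2 mouse 1. Without that mouse the exact permutation p was 0.0954, and the median log2 fold change of the 8 microglia markers was 0.02, against 0.09 with all mice. The part of these cells in the guidance results was not tested.

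Further genes of the pathway, a list of 56 co-receptors, other ligands and intracellular effectors, had 8 lower and 0 higher members at an unadjusted p under 0.05, and 0 past an FDR of 0.05 in edgeR. Over all genes tested 5.14% were lower and 4.86% higher. DESeq2 gave 8 lower and 1 higher, beside 5.59% and 4.76%. The median log2 fold change was -0.04, and -0.02 without B6.D2 mouse 1. Without that mouse 8 were lower and 0 higher, beside 7.54% and 5.82%. With all mice and the cortical score as a covariate, 2 were lower and 0 higher, beside 1.08% and 2.07%. These were *Chl1*, at -0.23, and *Farp2*, named after its values were seen, at -0.32. Without the covariate *Farp2* was at -0.14, at an unadjusted edgeR p of 0.168. The adhesion molecule *Chl1*, a co-receptor for class 3 semaphorins, ran from 98.4 to 135.3 CPM in B6 mice, with a median of 110.5 CPM, and from 78.6 to 104.2 CPM in B6.D2 mice, with a median of 94.5 CPM. In 6 B6.D2 mice it lay below every B6 mouse. Its log2 fold change was -0.25 ± 0.07 (SE), with an edgeR adjusted p of 0.331, and -0.22 without mouse 1. It was -0.39 in lanes 5 and 6 and -0.12 in lanes 7 and 8, where the unadjusted p was 0.0503. In the test of the difference between lane pairs *Chl1* had an unadjusted p of 0.0347 and an edgeR adjusted p of 0.950. That test took 2 of the 56 associated genes at an unadjusted p under 0.05, beside 1.88% of all genes, and 0 past an FDR of 0.05. The related adhesion molecule *Nrcam* had a log2 fold change of -0.25 ± 0.08 (SE), with an edgeR adjusted p of 0.365, and -0.19 without mouse 1. *Lrrc4c*, the netrin-G1 ligand, and *Flrt2*, a ligand of Unc5 receptors, had log2 fold changes of -0.15 and -0.20. Effectors on the list were the kinases *Pak1* and *Pak3*, at -0.20 and -0.14, and the actin regulators *Mical2* and *Ablim3*, at -0.33 and -0.18. With the cortical score as a covariate *Pak1* was at -0.02 and *Mical2* at -0.01, with unadjusted p-values of 0.699 and 0.885. *Nrcam* was at -0.15, *Ablim3* at -0.12, *Pak3* at -0.11, *Lrrc4c* at -0.10 and *Flrt2* at -0.09. Without B6.D2 mouse 1 the unadjusted p of *Pak3* was 0.0672.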

How the data were processed

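Striatal RNA of 8 B6 and 8 B6.D2 mice was sequenced, and the authors deposited gene counts per mouse and lane, not normalised, from TopHat2 and HTSeq 0.6.1p1 (mm10, union mode, strand unused). The 31 lane files were summed per mouse (B6 mouse 7 has 1). Between 61.4% and 68.3% of tabulated reads were counted on genes; 19.5% to 27.3% had several alignments. Genes kept by filterByExpr were scaled by TMM and compared in edgeR 4.0.16 (R 4.3.3) by its quasi-likelihood F statistic, Benjamini-Hochberg adjusted over 15589 genes. SE is the size of the log2 fold change over the square root of F. Single values were also compared by exact two-sided permutation over the 16 mice (Python 3.11), unadjusted, on log2 CPM with a prior count of 0.5 (marker sums without one). Exon lengths are from GENCODE (mm9), positions from RefSeq (GRCm38.p6). The biological coefficient of variation was 13%, so the spread between mice limits precision. The authors' comparison tables were not used.

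Named members are those with an unadjusted p under 0.05 and, in each of 4 families, the 2 highest per length, filled by lowest p where a family had under 4; of the associated genes, up to 8 with an unadjusted p under 0.05. Members and lists were chosen with earlier results of these data known. Alternatives were RLE and upper-quartile scaling, other filters, DESeq2 1.42.0, the likelihood ratio test and 1 lane per mouse. Further ones were lane pair or cortical score as covariate, a replicate block, each lane pair alone and each mouse left out. For the separation of *Slit2*, upper-quartile scaling and library totals alone were both applied after seeing the data. The pipeline was tested on simulated data.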

Additional observations from a re-analysis of the deposited data

Results flagged for a closer look

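Within each genotype, a value was picked out where the gap between the lowest or highest mouse and the next, as a share of the whole range, exceeded Dixon's 95% value for 8 mice. Of 80 groups, 15 were picked out. Chance flags about 1 in 20 groups. B6.D2 mouse 1 was the mouse in 12 of the 15. It was far below the other B6.D2 mice for *Epha5* (ratio 0.731, 23.4 CPM against 39.8 in the next mouse), *Slit2* (0.726, 7.68 against 12.8), *Slit3* (0.690, 12.1 against 36.5), *Robo2* (0.648, 114.5 against 144.0), *Ntn4* (0.598), *Sema5a* (0.565) and the effector kinase *Pak3* (0.534). It was also apart in the median log2 deviation of the guidance genes (0.910), of short genes (0.907) and of long genes (0.840). Its summed levels of astrocyte markers (0.577) and microglia markers (0.547) were the highest of its genotype.

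In 3 groups another mouse was apart. The summed cortical markers of B6.D2 mouse 2 were high at 821.8 CPM (0.535), the summed oligodendrocyte markers of B6 mouse 2 were low at 10418 CPM (0.637), and the median deviation of the guidance genes in B6 mouse 1 was high at 0.10 (0.611).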

How the results depend on the processing

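Across 29 alternatives to each genotype result, 16 of which leave out 1 mouse, 0 guidance genes passed an FDR of 0.05. Of 580 log2 fold changes of the 20 named members, 514 kept direction and side of the p threshold, 47 lost the call, 6 gained it and 13 changed sign. None of the 12 called members changed sign, in alternatives that reuse the mice on which these members were chosen. Genes past an FDR of 0.05 numbered 20 with the likelihood ratio test, 25 with DESeq2, 2 with lane pair as a covariate, 0 in lanes 5 and 6, 0 in lanes 7 and 8, 0 with the cortical score, 7 without both B6.D2 mouse 1 and B6 mouse 8 (chosen after seeing the data), and 1 to 4 with 1 mouse left out. Lower members numbered 7 in lanes 7 and 8 and 3 with the cortical score, and 8 to 13 with 1 mouse left out. Higher members numbered 2 with upper-quartile scaling, 2 with 1 lane per mouse, 0 in lanes 5 and 6, 6 in lanes 7 and 8, 0 with the cortical score, 8 without both mice, and 1 to 7 with 1 mouse left out, 7 being without B6.D2 mouse 1. Of all genes tested, lower and higher ones made up 4.32% and 5.91% with upper-quartile scaling, 5.02% and 4.31% with 1 lane per mouse, 1.56% and 1.64% in lanes 5 and 6, 4.66% and 4.35% in lanes 7 and 8, 1.08% and 2.07% with the cortical score, and 7.32% and 5.44% without both mice. With 1 mouse left out they made up 3.62% to 7.54% and 3.45% to 6.09%. The replicate block, which assumes that equal mouse numbers pair across genotypes, gave 0 genes past the FDR, 9 lower and 2 higher members, beside 4.67% and 4.16% of all genes, and 1 higher associated gene. Between mice of equal number the correlations ran from -0.116 to 0.364, and 3 of 16 mice correlated best with their own number. The median of the members was -0.00035 in lanes 7 and 8, -0.013 without both mice, and between -0.075 and -0.0088 with 1 mouse left out. Associated genes that were lower numbered 4 in lanes 5 and 6, 5 in lanes 7 and 8, 2 with the cortical score and 7 to 9 with 1 mouse left out. Higher ones numbered 1 with upper-quartile scaling, 1 with the likelihood ratio test, 1 in lanes 7 and 8, 1 with DESeq2 and 0 to 2 with 1 mouse left out. Members with a lane pair interaction at an unadjusted p under 0.05 numbered 0 with all mice, beside 1.88% of all genes. With 1 mouse left out they numbered 0 to 4, 4 being without B6 mouse 5. No share of all genes is given for those fits, so these counts cannot be set against a background. Members with every B6.D2 mouse below every B6 mouse numbered 0 with upper-quartile scaling and 0 with library totals alone. Both scalings were chosen after seeing the data, and 0.00641% and 0.0128% of all genes separated under them. With each single mouse left out these members numbered 1. Leaving out a mouse cannot undo the separation of *Slit2* with all mice, so a count of at least 1 was fixed in advance. The log2 fold change of *Sema7a* was 0.00045 with upper-quartile scaling, 0.015 in lanes 5 and 6, 0.027 with the cortical score and -0.040 to 0.0099 with 1 mouse left out. *Unc5b* was at -0.040 in lanes 5 and 6, -0.178 with the cortical score and -0.0024 to 0.091 with 1 mouse left out. *Efnb3* was at -0.00063 with the cortical score. *Slit3* was at 0.050 without both mice and -0.165 to 0.018 with 1 mouse left out. Subsets and the covariate leave fewer mice or degrees of freedom; otherwise the cause was not tested.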
